A study of Mus musculus with 14 samples.

Results

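The genes described here are 41 neuropeptide genes of the mouse brain: 15 peptide precursors, 5 granins and other proteins of the secretory granule, 20 receptors and 1 binding protein. They were chosen by name, with earlier results of these data known, and all 41 were found among the 34193 gene symbols of the deposited count table. RNA of the cortex was sequenced in 14 C57BL/6J mice aged 8 weeks, of which 7 carried 1 knockout allele of Dnmt3a (4 females and 3 males) and 7 were wild-type littermates (4 females and 3 males). The titles and protocols give the libraries as RNA-seq, while the molecule field of the same labels reads genomic DNA, and the counts are treated here as RNA. Dnmt3a encodes a DNA methyltransferase that is active in neurons after birth, and the labels give the knockout as heterozygous in the animal, with no promoter or cell type that would limit it. Each sample is whole cortical tissue, so fewer cells of a type and less RNA per cell cannot be told apart in any of the values below.

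Sample titles share a leading number, the title prefix, between animals of both genotypes, and the labels do not say what it marks. Prefixes 046, 048 and 119 hold males and prefixes 047, 139 and 141 hold females. Each prefix holds 1 wild-type and 1 heterozygous animal, except 141, which holds 2 of each. An earlier look at these data had separated prefixes 046, 047, 048 and 139 (set A, 8 animals) from 119 and 141 (set B, 6 animals), and that split is kept here.

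Neuropeptides are cut from larger precursor proteins inside dense-core vesicles, where granins such as chromogranin A help to pack them, and they act after release on receptors that are mostly coupled to G proteins. In the cortex, somatostatin, neuropeptide Y and vasoactive intestinal peptide are made by subclasses of GABAergic interneurons, cholecystokinin by interneurons and many excitatory neurons. Transcription of several precursor genes follows neuronal activity through the cAMP response element, a short DNA motif bound by the factor CREB.

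The promoters of 5 members are shown because they hold this element and belong to the precursors and granins on which the comparisons below turn (Cartpt, Adcyap1, Chga and Scg2), with the somatostatin gene, the textbook example of the element, beside them. Each sequence is the 250 bases before the start of transcription in RefSeq (GRCm38.p6), on the strand of the gene. Capitals mark the full element TGACGTCA or, where only that is present, its core TGACG. The windows are chr13:99900684-99900933 on the minus strand for Cartpt, chr17:93198767-93199016 on the plus strand for Adcyap1 (the upstream of 2 annotated starts), chr12:102554691-102554940 on the plus strand for Chga, chr1:79440027-79440276 on the minus strand for Scg2 and chr16:23890845-23891094 on the minus strand for Sst.
Cartpt: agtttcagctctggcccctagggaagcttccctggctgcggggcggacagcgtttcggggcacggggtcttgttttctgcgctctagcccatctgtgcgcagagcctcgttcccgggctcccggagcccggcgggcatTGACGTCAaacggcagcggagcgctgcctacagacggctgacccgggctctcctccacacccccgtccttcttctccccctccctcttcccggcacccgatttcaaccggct
Adcyap1: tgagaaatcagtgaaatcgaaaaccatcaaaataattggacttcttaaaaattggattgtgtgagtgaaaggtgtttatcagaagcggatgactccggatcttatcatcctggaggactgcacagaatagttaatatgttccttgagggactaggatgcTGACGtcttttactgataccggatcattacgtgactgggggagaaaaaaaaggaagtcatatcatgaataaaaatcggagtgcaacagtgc
Chga: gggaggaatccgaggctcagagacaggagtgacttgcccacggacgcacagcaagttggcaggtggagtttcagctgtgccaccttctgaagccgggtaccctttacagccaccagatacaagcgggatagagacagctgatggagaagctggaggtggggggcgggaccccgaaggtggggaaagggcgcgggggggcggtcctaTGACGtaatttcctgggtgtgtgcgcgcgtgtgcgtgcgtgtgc
Scg2: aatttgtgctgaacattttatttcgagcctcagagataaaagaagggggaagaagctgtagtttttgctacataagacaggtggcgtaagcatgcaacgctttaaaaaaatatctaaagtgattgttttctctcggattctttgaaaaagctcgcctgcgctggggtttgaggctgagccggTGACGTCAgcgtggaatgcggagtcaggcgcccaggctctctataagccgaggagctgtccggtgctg
Sst: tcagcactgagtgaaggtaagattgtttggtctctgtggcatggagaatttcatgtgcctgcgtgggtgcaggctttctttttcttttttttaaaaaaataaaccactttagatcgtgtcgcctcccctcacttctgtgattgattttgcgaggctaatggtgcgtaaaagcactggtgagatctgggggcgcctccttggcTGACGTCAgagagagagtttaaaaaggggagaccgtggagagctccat
Counted from the start, the first base of the full element lay at -112 in Cartpt, -68 in Scg2 and -48 in Sst, and the first base of the core alone lay at -44 in Chga and -91 in Adcyap1. RefSeq windows of 300 bases, 250 before and 50 after the start, were at hand for 35 of the 41 members. On either strand, the full element was in 5 of these 35 (14.3%; Cartpt, Sst, Scg2, Chgb and Sstr2), against 2.03% of all 27025 genes with a window. The core, which every full element also contains, was in 20 of 35 (57.1%), against 23% of all genes. Both motifs hold the base pair step CG, and the windows of members held more of it, at a median of 14 against 8 over all genes. These shares were not matched for that. A match of letters is a description of the window and not a binding site.

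The libraries held 8951835 to 14335406 counts each, 9794201 to 14206585 in wild type and 8951835 to 14335406 in heterozygotes. The 41 members together took 0.162% to 0.199% of a library's counts. After the filter on low counts 13815 genes were tested, all 41 members among them. Dnmt3a was at 146 ± 14.2 CPM (counts scaled to library size) in wild type and 99.0 ± 11.4 CPM in heterozygotes (SD, n = 7 each), with no overlap between the genotypes. The 13 protein-coding mitochondrial genes took 0.571% to 0.860% of counts in set A and 1.11% to 1.99% in set B. The mitochondrial ribosomal RNA gene mt-Rnr2, not among them, took 3.17% to 4.84% in set A and 1.70% to 3.81% in set B. Slc17a7, which marks cortical excitatory neurons, was at 1054 to 1642 CPM and Gad1, which marks GABAergic neurons, at 191 to 335 CPM in the 14 animals. Of the hypothalamic genes, Hcrt and Otp had 4 and 2 reads in all libraries together, and Pmch and Nkx2-1 had 33 and 44. Pomc had 181 reads, at 0.427 to 2.15 CPM.

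To compare levels between genes, CPM was divided by exon length in kilobases (GENCODE M21). On this scale the level of Cck, the cholecystokinin precursor, had the highest median over the 14 animals at 139.5 CPM per kb (range 119.3 to 165.6), followed by Sst, the somatostatin precursor, at 131 (105.2 to 166.9), and these 2 ranges overlapped. The 7B2 protein gene Scg5 (74.9), Chgb (68.5), Scg3 (68.2) and Scg2 (65.1 CPM per kb) formed the next group, with overlapping ranges. Npy stood at 45.2, the PACAP receptor gene Adcyap1r1 at 38.2, Penk, the proenkephalin gene, at 35.2 and Chga at 31.2 CPM per kb. The cholecystokinin receptor gene Cckbr was at 23.6, the 4 somatostatin receptor genes between 6.68 (Sstr2) and 16.7 (Sstr4), and the lowest member was Oprk1, the kappa opioid receptor gene, at 0.321 CPM per kb. Cartpt had 2.84 CPM per kb. Of the members, 3 overlap other genes in the annotation: 14.3% of Penk's exon bases lie opposite A830012C17Rik, 20.6% of Nmb's lie in Sec11a on the same strand and 1.19% of Oprm1's lie opposite Ipcef1, so the counts of Penk and Nmb in particular are uncertain in what they hold.

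**Figure D1:**
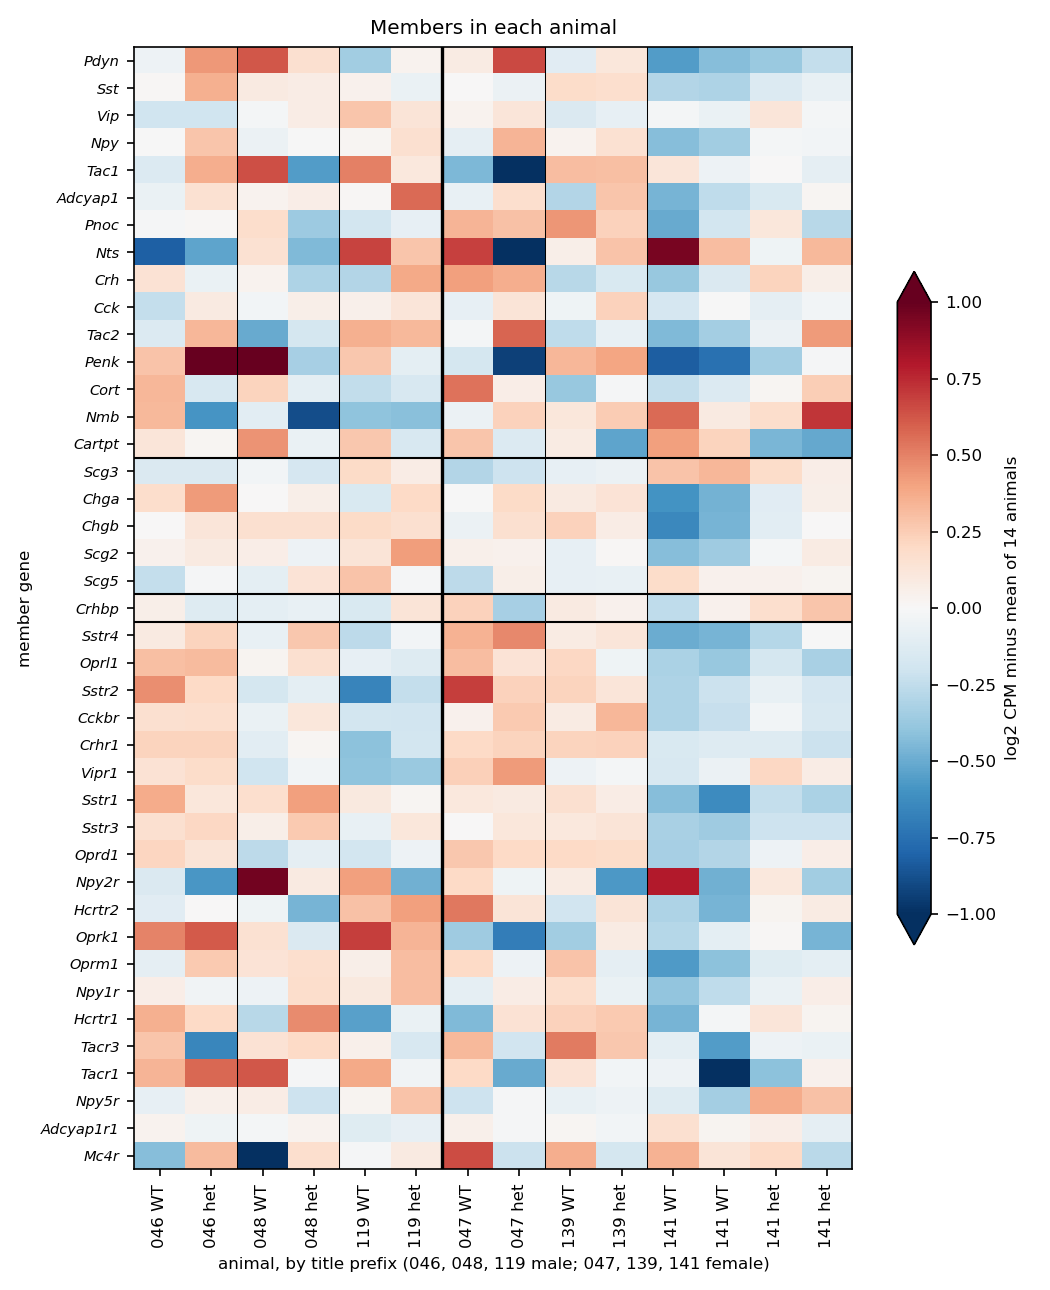
Levels of the 41 members in each of the 14 animals, as log2 CPM minus the member's mean over all animals (colour scale, which ends at 1 either way), with members grouped by role in rows and animals grouped by title prefix in columns. Penk ran from 31.1 to 130.5 CPM over the animals, while Adcyap1r1 ran from 230.5 to 280.0 CPM.

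The main question of the design is whether the cortex of heterozygotes differs from that of wild type. No member passed the threshold of an adjusted p of 0.05 in edgeR's quasi-likelihood test with sex as a term, where 2 of the 13815 genes did (0.0145%), Dnmt3a among them. No member passed by DESeq2 (11 genes, 0.0796%) or with sex and set as terms (15 genes, 0.109%). At an unadjusted p under 0.05 there were 6 of the 41 members by each tool, against 4% of genes by edgeR and 3.97% by DESeq2. By edgeR 4 of them were higher in heterozygotes (9.76% of members) and 2 lower (4.88%), against 1.75% and 2.24% of all genes. With the title prefix as a block, 1 member passed, Chga, described below with its dependence on single animals. In that fit 13 of the 41 members (31.7%) had an unadjusted p under 0.05, against 12.9% of genes. Of these, 10 were higher in heterozygotes (24.4% of members, against 6.2% of genes) and 3 lower (7.32%, against 6.7%). They were Cartpt, Npy, Cck, Adcyap1 and Nts among the precursors, Chga, Scg2 and Chgb among the granule genes, and Npy2r, Sstr3, Sstr4, Cckbr and Vipr1 among the receptors. Because the list was chosen with earlier results of these data known, these shares describe it and are not a test of it. The log2 fold change, heterozygous minus wild type, was above 0 in 25 of the 41 members, with a median of 0.040, beside 50.9% of all genes and a median of 0.0024. In the authors' deposited table no member had an adjusted p under 0.05 (27 of 14160 genes, 0.191%).

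**Figure D2:**
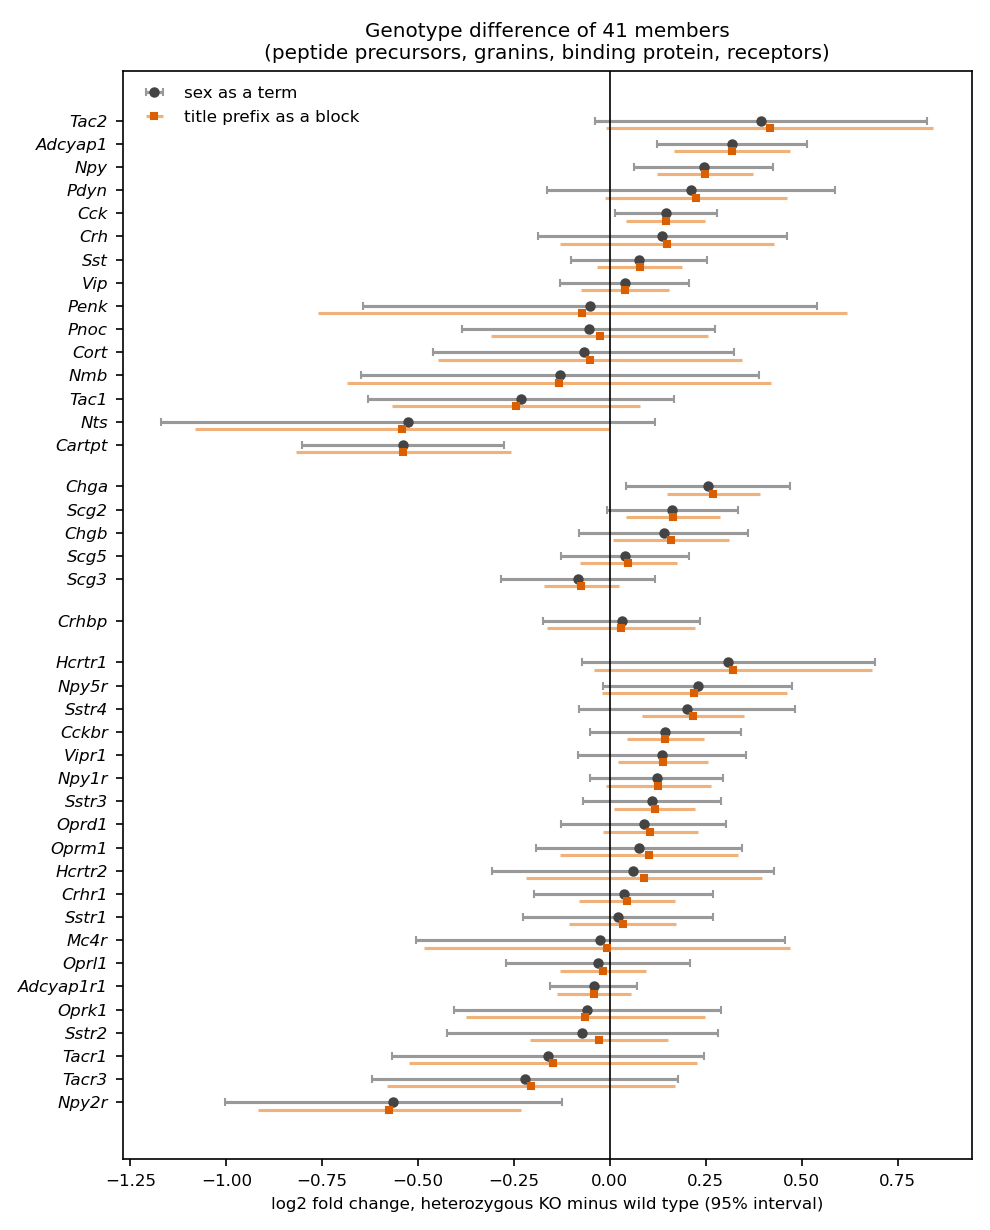
Log2 fold change, heterozygous minus wild type, of the 41 members with 95% intervals from 7 animals per genotype, from the fits with sex (circles) or the title prefix (squares) beside genotype, grouped by role. Cartpt at -0.54 and Npy2r at -0.56 lie lowest, and no member had an adjusted p under 0.05 with sex as a term.

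Among the peptide precursors, Cartpt, which encodes the CART peptide known for its part in feeding and reward, had the smallest p. Wild-type animals had 3.70 to 4.84 CPM (median 4.26) and heterozygotes 2.37 to 3.55 CPM (median 3.12). Every heterozygote was below every wild-type animal, which was so for 6 of the 13815 genes tested (0.0434%), and Cartpt was the only member whose genotypes did not overlap. The log2 fold change was -0.54 with an SE of 0.125 and an unadjusted p of 0.000424, and the adjusted p of edgeR's test over all genes was 0.385. Cartpt was lower in heterozygotes in all 6 prefixes, which held for 2 members (4.88%) and 2.05% of all genes. It was counted with a mean of 42.6 reads per animal. With the prefix as a block the log2 fold change was -0.54 with an adjusted p of 0.0848 in edgeR's test, and the authors' deposited table gave -0.23, a shrunken log2 value, with an adjusted p of 0.152.

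Adcyap1, the precursor of the peptide PACAP, was at 14.2 to 20.1 CPM (median 18.7) among wild type and at 17.7 to 29.2 CPM (median 21.9) among heterozygotes. The ranges overlapped, and heterozygotes were higher in all 6 prefixes. The log2 fold change was 0.32 (SE 0.0935) with an adjusted p of 0.883, and of 0.0533 with the prefix as a block, in edgeR's test. Npy, the precursor of neuropeptide Y, was at 19.0 to 26.2 CPM (median 24.6) among wild type and 25.1 to 32.5 CPM (median 28.4) among heterozygotes. The 2 lowest wild-type values, 19.0 and 20.1 CPM, belonged to the 2 wild-type animals of prefix 141. Its log2 fold change was 0.24 (SE 0.0860), with adjusted p of 0.978 and, with the block, 0.0775 by edgeR. Cck was at 156 to 191 CPM (median 178) among wild type and 172 to 216 CPM (median 196) among heterozygotes, overlapping ranges, with a log2 fold change of 0.15 (SE 0.0635) and an unadjusted p of 0.0337 in edgeR's model. Npy and Cck were also higher in heterozygotes in every prefix. Together 7 members were (17.1%), against 2.38% of all genes, again for a list chosen with earlier results known. The other 5 were Adcyap1, Chga, Sstr3, Sstr4 and Vipr1.

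**Figure D3:**
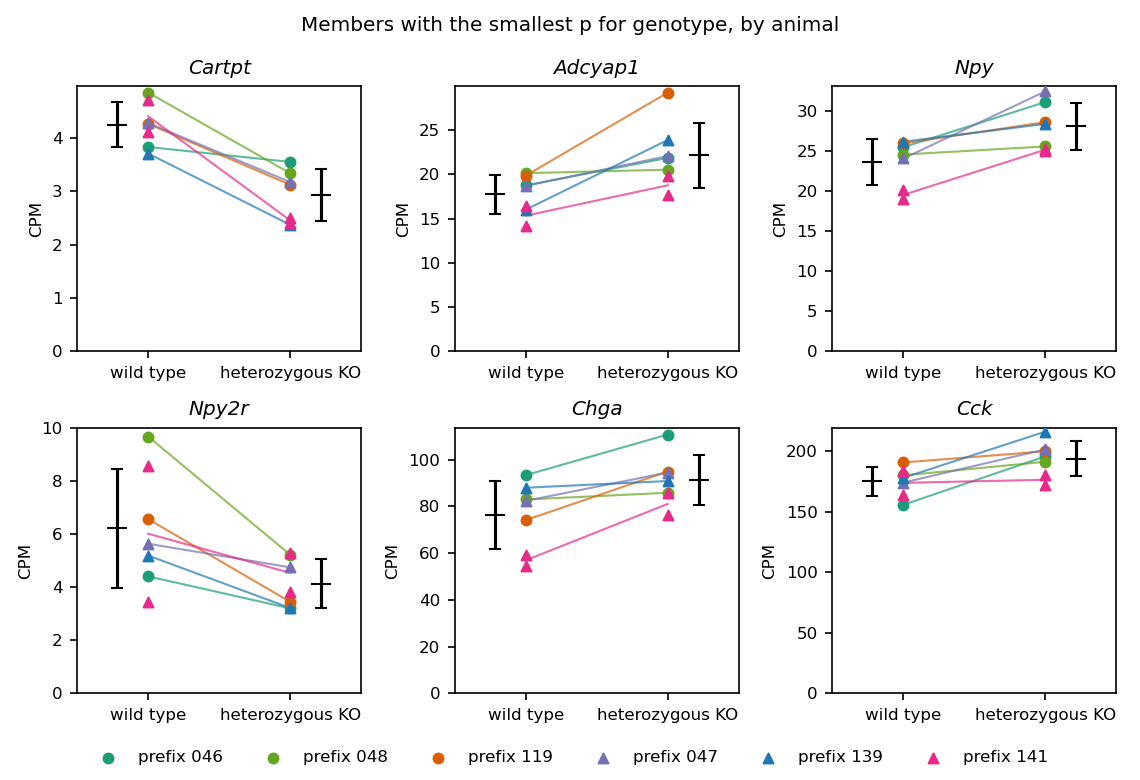
CPM of the members with the smallest p for genotype in each animal (coloured points by title prefix, circles for males and triangles for females), wild type beside heterozygotes. Lines join the means of a prefix, and black bars give the mean and SD of 7 animals. Cartpt shows no overlap between the genotypes, and the others shown overlap.

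For the remaining 11 precursors the 95% interval of the log2 difference included 0 in the fit with sex. Tac2, the neurokinin B precursor, was at 0.872 to 1.72 CPM (median 1.07) among wild type and 1.14 to 2.04 CPM (median 1.69) among heterozygotes, a log2 difference of 0.39 (SE 0.206) that rests on a mean of 16.1 reads. Nts, the neurotensin precursor, had 0.662 to 2.66 CPM (median 1.64) among wild type and 0.226 to 1.66 CPM (median 1.25) among heterozygotes, and spanned 11.7-fold over the 14 animals with a mean of 17.2 reads. Its log2 difference was -0.53 with an interval of -1.17 to 0.12 in the fit with sex, and -0.54 with an interval of -1.08 to -0.0031 (adjusted p = 0.385 by edgeR) with the prefix as a block. The level of Sst was 75.8 to 107 CPM (median 94.6) among wild type and 85.7 to 120.3 CPM (median 90.2) among heterozygotes. Vip was at 25.5 to 35.4 CPM (median 28.9) against 25.5 to 31.9 CPM (median 30.8), a log2 difference of 0.04 with a 95% interval of -0.13 to 0.21. Pdyn, the prodynorphin gene, had 4.80 to 11.1 CPM (median 6.62) against 5.49 to 11.4 CPM (median 7.77). Penk had 33.5 to 130.5 CPM (median 71.9) against 31.1 to 123 CPM (median 55.8), and its interval of the log2 difference ran from -0.64 to 0.54. The log2 differences of Tac1, Crh, Cort, Pnoc and Nmb lay between -0.23 (Tac1, the substance P precursor) and 0.14 (Crh, the corticotropin-releasing hormone precursor).

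Among the granins, Chga, which encodes chromogranin A, was at 54.6, 59.4, 74.2, 82.4, 83.0, 88.0 and 93.4 CPM in the 7 wild-type animals. In the 7 heterozygotes it was at 76.2, 85.9, 86.0, 90.9, 94.5, 94.97 and 110.8 CPM. The genotypes overlapped, and the 2 lowest wild-type values were again the animals of prefix 141. The log2 fold change was 0.26 (SE 0.102) with an adjusted p of 0.978 in edgeR's fit with sex, and 0.27 (SE 0.0586) with an adjusted p of 0.0444 in the fit with the prefix as a block. Chga was the 1 member called in the block fit (2.44% of members), where 36 genes were called as higher (0.261%) and 56 genes in either direction (0.405%). That call was lost when any 1 of 8 animals was left out. These were wild-type replicates 3, 5, 6 and 7 and heterozygous replicates 4, 5, 6 and 7, which are the pairs of prefixes 047 and 119 and the 4 animals of prefix 141. In a prefix with 1 animal of each genotype, leaving out either also takes the other out of the blocked genotype estimate. The adjusted p of edgeR's test lay between 0.0144 and 0.155 over the 14 repeats. Without the 4 animals of prefix 141, an omission chosen after seeing the data, the blocked log2 fold change was 0.18 with an adjusted p of 0.449. The authors' deposited table gives Chga a log2 fold change of 0.21 with an adjusted p of 0.0982.

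Scg2, the secretogranin II gene, was at 118 to 174 CPM (median 164) among wild type and 154 to 213 CPM (median 164) among heterozygotes, a log2 difference of 0.16 (SE 0.0815). Chgb, the chromogranin B gene, was at 112 to 206 CPM (median 176) and 163 to 196 CPM (median 191), and Scg3, a granule sorting protein gene, at 156 to 242 CPM (median 188) and 166 to 218 CPM (median 185). Scg5, whose product assists the prohormone convertase PC2, was at 97.4 to 142 CPM (median 110.2) among wild type and 111 to 129 CPM (median 119) among heterozygotes. The ranges of these 4 genes overlapped between the genotypes.

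Among the 20 receptors, Npy2r, a receptor for neuropeptide Y that acts mostly before the synapse, had the smallest p. Wild-type animals had 3.46 to 9.69 CPM (median 5.64) and heterozygotes 3.21 to 5.28 CPM (median 3.81). The ranges overlapped, heterozygotes were lower in all 6 prefixes, and the log2 fold change was -0.56 (SE 0.209, unadjusted p = 0.0145, adjusted p = 0.978 in edgeR's test, and 0.143 with the block). The other neuropeptide Y receptors had log2 differences above 0. Npy5r was at 4.46 to 6.00 CPM (median 5.37) among wild type and 4.93 to 7.44 CPM (median 5.91) among heterozygotes, a log2 difference of 0.23. Npy1r was at 26.2 to 38.8 CPM (median 33.2) and 32.8 to 42.6 CPM (median 36.1), a log2 difference of 0.12 with a 95% interval of -0.05 to 0.29. The remaining 17 receptors and Crhbp, whose product binds corticotropin-releasing hormone, had log2 differences from -0.22 (Tacr3, the neurokinin B receptor gene) to 0.31 (Hcrtr1, an orexin receptor gene), each with a 95% interval that includes 0 in the fit with sex. With the prefix as a block the intervals lay above 0 for 4 of them: Sstr4 (0.083 to 0.35), Cckbr (0.044 to 0.25), Sstr3 (0.012 to 0.22) and Vipr1, a receptor gene for vasoactive intestinal peptide (0.021 to 0.26), with adjusted p of 0.155 to 0.340 in edgeR's test. The 4 somatostatin receptor genes had differences of 0.02 (Sstr1), -0.07 (Sstr2), 0.11 (Sstr3) and 0.20 (Sstr4), and the opioid receptor genes of -0.06 (Oprk1), -0.03 (Oprl1), 0.08 (Oprm1) and 0.09 (Oprd1). Adcyap1r1, the receptor gene for PACAP, was the steadiest member, at 230.5 to 280.0 CPM among wild type and 236 to 263 CPM among heterozygotes.

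Markers of cell types were read beside these values. With sex as a term, none of the 14 astrocyte markers was called and the log2 differences were below 0 in all 14, with a median of -0.19. With the prefix as a block, 10 of the 14 had an unadjusted p under 0.05, all lower in heterozygotes, and Agt, the angiotensinogen gene, was called (log2 fold change -0.52, adjusted p = 0.0234 in edgeR's test). Their summed level was 10581 to 19382 CPM among wild type and 10206 to 15617 CPM among heterozygotes, and the 2 wild-type animals of prefix 141 were highest, at 19382 and 18758 CPM. The 25 tested immediate early genes, which follow neuronal activity, were above 0 in 23 with sex as a term, with a median of 0.24 and none called. With the block, 13 of the 25 had an unadjusted p under 0.05, all higher in heterozygotes, and 2 were called, Ier5 (log2 fold change 0.28, adjusted p = 0.0272 in edgeR's test) and Egr1 (0.28, adjusted p = 0.0414). The summed level of the 26 listed was 1413 to 2752 CPM among wild type and 1577 to 3143 CPM among heterozygotes. The 21 interneuron markers other than peptides were above 0 in 12, with a median of 0.029. The other lists had no gene called in either fit. Oligodendrocyte markers were above 0 in 12 of 15 (median 0.14), with 4 at an unadjusted p under 0.05 with sex as a term and 7 with the block, all higher, and summed to 4080 to 6805 CPM among wild type and 4105 to 6771 CPM among heterozygotes. Excitatory neuron and layer markers were above 0 in 13 of 16 (median 0.070), with 2 and 6 at that level, all higher, and summed to 2375 to 3245 CPM and 2664 to 3322 CPM. Microglia markers were below 0 in 11 of 12 (median -0.092), with 1 and 1 at that level, and summed to 339 to 511 CPM and 369 to 441 CPM. Endothelial and pericyte markers were below 0 in 11 of 12 (median -0.14), with 1 and 4 at that level, all lower, and summed to 268 to 348 CPM and 257 to 295 CPM. The part of these marker levels in the members' values was not tested. Without prefix 141, the log2 fold changes were -0.42 for Cartpt, 0.33 for Adcyap1, 0.21 for Npy, 0.19 for Cck, 0.18 for Chga and -0.65 for Npy2r, all with the signs they had in 14 animals.

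The genotype difference was also read within each set. In set B, 3 members passed the adjusted threshold in a fit of all 14 animals with the difference estimated per set: Chga and Scg2 were higher and Cartpt lower in heterozygotes (7.32% of members, against 673 of 13815 genes, 4.87%). In set A no member passed, and 1 gene did (0.00724%). With the prefix as a block, 8 members passed in set B (1888 genes, 13.7%): Adcyap1 (adjusted p = 0.0134), Npy (0.0366), Npy1r (0.0277), Sstr4 (0.0382) and Oprd1 (0.0315 in edgeR's test) were higher as well. In set A none did (9 genes, 0.0651%). Of these calls, those of Chga and Scg2 were made in each of the 14 block fits that left out 1 animal. In 8 of these the animal was of set A, which bears on the set B difference only through the shared scaling and spread. Of the 6 without a set B animal, those without wild-type replicate 6 or heterozygous replicate 7 called only Chga and Scg2 among members (749 and 700 genes). Without wild-type replicate 5 or heterozygous replicate 5 there were 6 members, without wild-type replicate 7 there were 4 and without heterozygous replicate 6 there were 5. In the fit with sex, no member was called without wild-type replicate 6 or 7 or heterozygous replicate 5 or 7, and 9 were without wild-type replicate 5. Cartpt kept its call in that fit only without wild-type replicate 4 or 5 or heterozygous replicate 3. These repeats were added after seeing the data. The log2 differences were 0.14 in set A and 0.45 in set B for Chga, 0.01 and 0.37 for Scg2, and -0.42 and -0.70 for Cartpt. Within set B, 32 of 41 members were above 0, with a median of 0.19, beside 49.9% of genes. Within set A, 21 of 41 were above 0, with a median of 0.0037, beside 50.4% of genes. In set B the 14 astrocyte markers were all lower in heterozygotes, 7 of them called, with a median log2 difference of -0.36, and their summed level was 14479 to 19382 CPM among wild type and 13506 to 15617 CPM among heterozygotes. With the block all 14 were called. Among the other cell type and activity markers, in the fit with sex, 2 excitatory neuron markers, 3 oligodendrocyte markers and 1 immediate early gene were called as higher in set B and 1 microglia marker as lower. The part of these markers in the set B values was not tested. A fit of the 6 set B animals alone called 11 members (26.8%), among 2304 of 13881 genes (16.6%): Adcyap1, Chga, Crhbp, Npy, Npy1r, Npy5r, Oprd1, Scg2 and Sstr4 as higher and Cartpt and Scg3 as lower.

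The difference between the sets was tested itself. With sex as a term no member and no gene passed, and 7 of the 41 members had an unadjusted p under 0.05, against 2036 of 13815 genes (14.7%). With the prefix as a block, 3 members passed (7.32%; Scg2, Chga and Scg5), against 767 genes (5.55%), a share near the background. The heterozygous minus wild-type difference of Scg2 was larger in set B by 0.37 (SE 0.0807, adjusted p = 0.00728 in edgeR's test). For Chga it was larger by 0.32 (SE 0.0904, adjusted p = 0.0323 in edgeR's test). Scg5 went the other way, with the difference in set B below that in set A by 0.35 (log2 value -0.35, SE 0.0878, adjusted p = 0.0168 by edgeR). The call of Scg2 was lost without heterozygous replicate 7. Chga did not pass once heterozygous replicate 3 or 7, or wild-type replicate 1, 3, 6 or 7, was left out, and Scg5 did not once heterozygous replicate 2, 4, 5 or 7, or wild-type replicate 2, 3, 5 or 6, was. Prefix by prefix, the log2 difference of Scg5 was 0.23, 0.32, 0.24 and 0.01 in 046, 047, 048 and 139, and -0.29 and -0.08 in 119 and 141. That of Chga was 0.25, 0.20, 0.05 and 0.05 in the set A prefixes, in the same order, and 0.36 and 0.51 in 119 and 141. That of Scg2 was 0.05, -0.01, -0.11 and 0.09, and then 0.29 and 0.42. Crhbp had the second smallest p of the fit with sex, with a genotype difference of -0.19 in set A, and of 0.31 in set B. The test of the change between the sets gave Crhbp an unadjusted p of 0.00405, which was 0.151 once adjusted over all genes in edgeR's test. Its levels were 12.8 to 17.9 CPM (median 15.8) among wild type and 12.1 to 18.6 CPM (median 15.7) among heterozygotes.

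**Figure D4:**
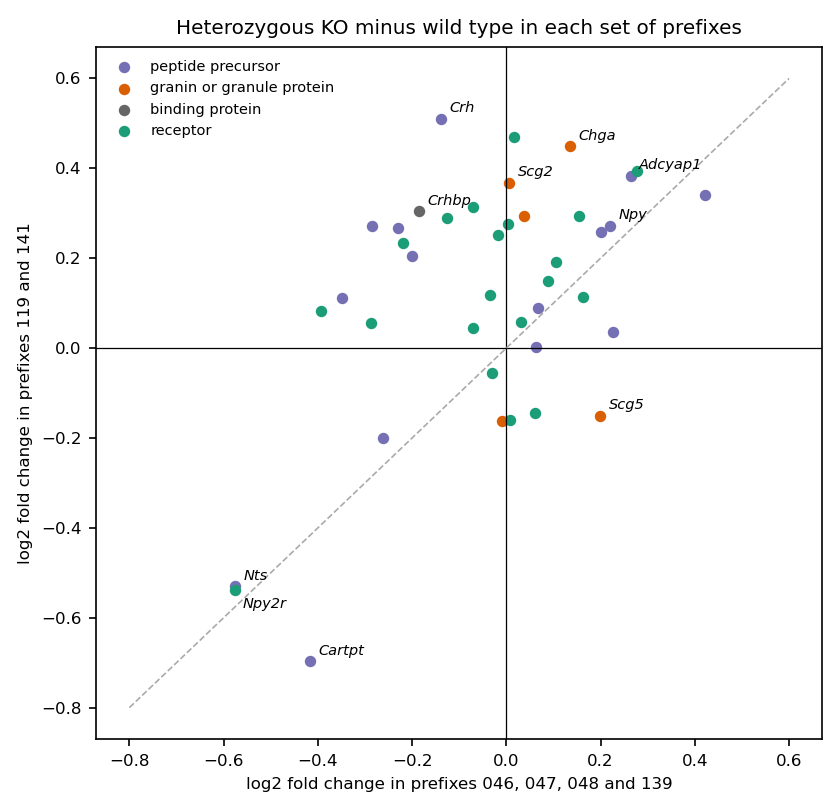
Log2 difference, heterozygous minus wild type, of each member in set A (horizontal axis, 8 animals) and in set B (vertical axis, 6 animals), from the fit with the difference estimated per set. Chga (0.14 and 0.45) and Scg2 (0.01 and 0.37) lie above the diagonal, Scg5 (0.20 and -0.15) below it, and Cartpt (-0.42 and -0.70) is negative in both sets.

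Females and males were compared with genotype as a term. No member passed (1 gene, 0.00724%), and 8 of the 41 members had an unadjusted p under 0.05, against 6.98% of genes. Oprk1 was at 1.81 to 3.22 CPM in the 8 females (median 2.40) and 2.73 to 5.00 CPM in the 6 males (median 4.11), with a log2 difference, female minus male, of -0.66. The unadjusted p was 0.000826 and the adjusted p 0.518 in edgeR's test. The 4 highest values were the males of prefixes 119 and 046, and prefixes lie within a sex. By genotype it ran from 2.34 to 5.00 CPM (median 2.82) across wild type and from 1.81 to 4.73 CPM (median 3.06) across heterozygotes. Sstr1 was at 17.5 to 30.2 CPM in females and 27.5 to 35.9 CPM in males, a log2 difference of -0.33 (adjusted p = 0.676 by edgeR). The genotype difference did not pass a test of its change with sex in any member or gene, and 1 member had an unadjusted p under 0.05 (144 genes, 1.04%). This was Mc4r, the melanocortin receptor gene, with a log2 difference of -0.51 in females and 0.68 in males. The unadjusted p of that change was 0.00614 and the adjusted p 0.9998 in edgeR's test. Its level was 0.678 to 2.82 CPM (median 1.91) among wild type and 1.41 to 2.20 CPM (median 1.85) among heterozygotes, at a mean of 21.9 reads. Nmb, the neuromedin B precursor, followed with 0.21 in females and -0.75 in males and an unadjusted p of 0.0611 by edgeR, at a mean of 10.5 reads, with 0.598 to 1.33 CPM (median 0.910) among wild type and 0.379 to 1.49 CPM (median 0.973) among heterozygotes.

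More members passed between title prefixes than between genotypes or sexes. Between prefixes of the same sex, 16 of the 41 members passed (39%), against 4448 of 13815 genes (32.2%), a share near the background. By role these were 9 of the 20 receptors, 4 of the 15 precursors (Pdyn, Sst, Vip and Npy), 3 of the 5 granule genes (Scg3, Chga and Chgb) and not Crhbp. The 9 receptors were Sstr1, Sstr2, Sstr3, Sstr4, Oprd1, Oprl1, Cckbr, Crhr1 and Vipr1, so that the 4 somatostatin receptor genes listed all passed. With prefix 141 left out, which was chosen after seeing the data, 7 of 40 members passed (17.5%), against 8.62% of genes. These were Crhr1, Npy2r, Oprl1, Scg3, Sstr2, Vip and Vipr1.

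The 6 members with the smallest p for prefix were Sstr4, Oprl1, Scg3, Sstr2, Cckbr and Crhr1, with adjusted p from 0.000106 to 0.000526 in edgeR's test. Sstr4 was at 26.6 ± 3.26 CPM in set A (SD, n = 8) and 19.5 ± 2.86 CPM in set B (SD, n = 6). Cckbr was at 74.2 ± 6.47 CPM in set A and 59.2 ± 3.89 CPM in set B, and Sstr2 at 17.9 ± 3.61 and 12.6 ± 1.67 CPM. These 3 genes overlapped between the sets. Oprl1, the nociceptin receptor gene, was at 51.2 to 65.6 CPM in set A and 40.4 to 49.7 CPM in set B, with no overlap. Crhr1, the main receptor gene for corticotropin-releasing hormone, was at 19.5 to 24.5 CPM in set A and 15.7 to 19.1 CPM in set B, with no overlap. Scg3 lay the other way, at 156 to 188 CPM in set A and 201 to 242 CPM in set B, with no overlap. These were the 3 members (7.32%) whose sets did not overlap, against 12.1% of all genes.

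By genotype the 6 genes overlapped. Sstr4 was at 16.3 to 29.5 CPM (median 21.99) among wild type and 18.9 to 32.3 CPM (median 25.1) among heterozygotes, and Oprl1 at 40.4 to 65.2 CPM (median 53.7) and 42.0 to 65.6 CPM (median 51.2). Sstr2 was at 9.56 to 24.7 CPM (median 13.5) and 12.9 to 17.9 CPM (median 14.5), and Cckbr at 54.3 to 75.1 CPM (median 64.1) and 58.7 to 84.7 CPM (median 72.7). Crhr1 was at 15.7 to 24.4 CPM (median 19.5) and 18.1 to 24.5 CPM (median 21.2). The other 4 receptor genes that passed for prefix overlapped by genotype too. Sstr1 ran from 17.5 to 35.0 CPM (median 29.2) across wild type and from 21.7 to 35.9 CPM (median 28.4) across heterozygotes, and Sstr3 from 27.3 to 39.2 CPM (median 35.2) and from 30.2 to 41.9 CPM (median 37.9). Vipr1 ran from 22.3 to 34.9 CPM (median 28.3) and from 22.8 to 39.7 CPM (median 31.1). Oprd1, the delta opioid receptor gene, ran from 28.1 to 42.7 CPM (median 31.1) and from 33.3 to 40.6 CPM (median 37.2).

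Cell type markers moved with the sets as well. The summed level of the 14 astrocyte markers was 10206 to 11701 CPM in set A and 13506 to 19382 CPM in set B. That of the 16 excitatory neuron and layer markers was 3008 to 3322 CPM in set A and 2375 to 2887 CPM in set B, and that of the 21 interneuron markers found in the table (of 23 listed) was 1721 to 1991 CPM and 1412 to 1669 CPM. None of these 3 sums overlapped between the sets. The sums of oligodendrocyte (4080 to 5287 and 5080 to 6805 CPM), microglia (339 to 449 and 401 to 511 CPM) and endothelial and pericyte markers (257 to 326 and 293 to 348 CPM) did. Immediate early genes summed to 1960 to 3143 CPM in set A and 1413 to 2344 CPM in set B. Between prefixes of the same sex, 20 of the 25 tested passed (80%), and 12 did without prefix 141 (48%). The part of all these lists in the differences of the members between prefixes was not tested.

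Penk, Tac1, Pdyn and Cartpt are strongly expressed in striatal neurons, which lie under the cortex, so the 18 striatal markers found in the table (of 20 listed) were summed in each animal; the relation was chosen after values had been seen. The sum ran from 814 to 1739 CPM. The level of Penk varied 4.19-fold, from 31.1 CPM in heterozygous replicate 4 to 130.5 CPM in wild-type replicate 4. It went with the striatal sum over the 14 animals with a Pearson r of 0.963 and a Spearman rho of 0.978 (permutation p = 2e-05 for each, the smallest that 100000 resamples can give, adjusted p = 0.00024 over 12 relations). Within set A r was 0.961 and rho 0.952 (exact permutation p = 0.000694 and 0.00114, adjusted 0.0036 and 0.00456), and within set B r was 0.947 and rho 0.886 (exact permutation p = 0.0111 and 0.0333, adjusted 0.0267 and 0.08). Without the 2 animals farthest from the median striatal sum r was 0.954.

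Tac1 went with the sum at r = 0.784 and rho = 0.728 over 14 animals (permutation p = 0.0009 and 0.00434, adjusted 0.0036 and 0.0130), and at r = 0.740 without the 2 farthest animals. In set A r was 0.933 and rho 0.976 (exact permutation p = 0.00124 and 0.000397), whereas in set B r was 0.707 (exact permutation p = 0.175) and was -0.616 over the 4 animals left without the 2 farthest, too few to say whether the relation holds within set B. Pdyn had r = 0.378 and rho = 0.332 over the 14 animals (permutation p = 0.1925 and 0.2475), with r of 0.105 within set A and 0.549 within set B. Cartpt had r = 0.133 and rho = 0.0637 (permutation p = 0.654 and 0.830), with r of 0.210 within set A and -0.0645 within set B. The same libraries carry both sides of each relation. The summed striatal level was 890 to 1601 CPM among wild type and 814 to 1739 CPM among heterozygotes.

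**Figure D5:**
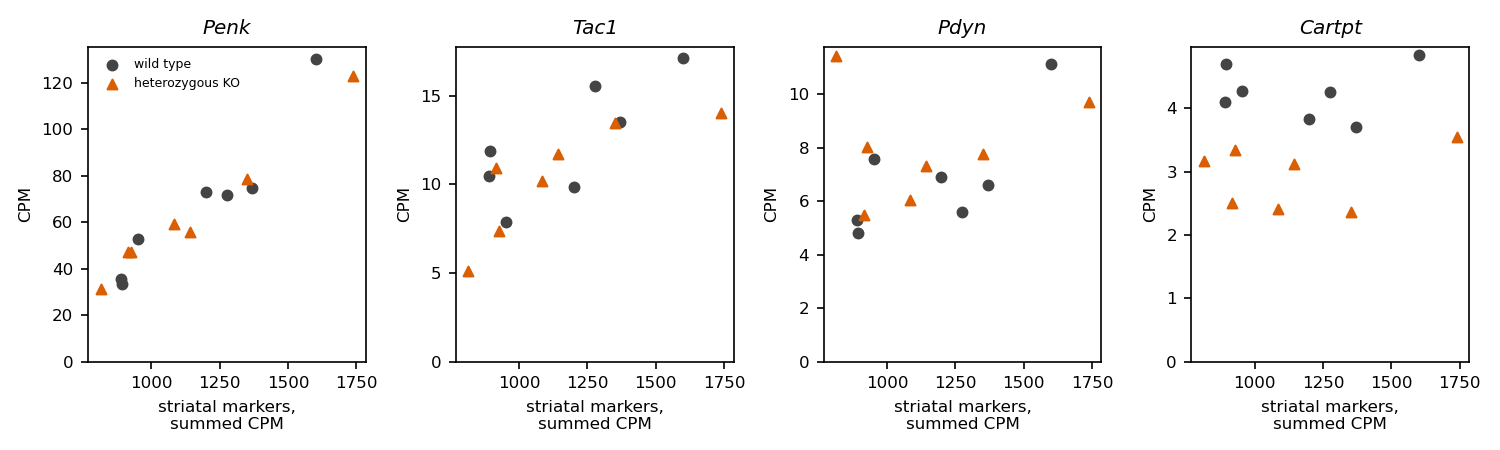
CPM of Penk, Tac1, Pdyn and Cartpt (vertical axes) against the summed CPM of 18 striatal markers (horizontal axis) in the 14 animals, with circles for wild type and triangles for heterozygotes. Penk follows the sum (r = 0.963), and Cartpt does not order the animals along it (r = 0.133).

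Other genes of peptide signalling were counted from lists written for this comparison. Of 25 genes of peptide processing and dense-core vesicles, none passed for genotype; 19 had log2 differences above 0, with a median of 0.060. Baiap3, which acts in dense-core vesicle traffic, had the smallest p, at 7.10 ± 2.68 CPM in wild type and 3.69 ± 1.64 CPM in heterozygotes (SD, n = 7 each; log2 fold change -0.93, adjusted p = 0.883 in edgeR's test). Pcsk2, the prohormone convertase PC2 gene, was at 510.0 ± 105 CPM and 588 ± 48.2 CPM, a log2 difference of 0.21. Of 30 further precursor genes 10 passed the filter on low counts, with 3 above 0 and none called. Kiss1 (-0.47, SE 0.289) and Trh (-0.86, SE 0.572) had the smallest p, at 0.122 and 0.149 unadjusted in edgeR's test. Both were low, with medians of 1.42 CPM each in wild type and 0.792 and 0.590 CPM in heterozygotes. Trh ran from 0.331 to 4.77 CPM among heterozygotes and passed between prefixes of the same sex (adjusted p = 0.000182 in edgeR's test). Of 30 further receptor genes 16 were tested, with 7 above 0 and none called. Kiss1r, the kisspeptin receptor gene, was at 8.13 ± 2.06 CPM in wild type and 6.10 ± 1.09 CPM in heterozygotes, and Ntsr1, the neurotensin receptor gene, at 12.2 ± 2.33 and 15.2 ± 3.16 CPM (SD, n = 7 each, log2 differences -0.41 and 0.31). Within set B, with sex as a term, 4 of the 25 processing genes were called (16%), against 4.87% of all genes. So were 1 of the 10 further precursors (10%) and 5 of the 16 further receptors (31.2%). With the block the calls were 11 (44%), 2 (20%) and 5 (31.2%), against 13.7% of genes.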

How the data were processed

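The authors deposited 1 table of raw read counts per gene symbol for the 14 animals, with their own shrunken log2 fold change, a test statistic (a score) and p-values. Per the submitters' processing notes, Trim Galore, Bowtie, STAR and bedtools were used with mm9, and per the labels' protocols the library kit was directional, with strand use in counting not given in the sources used here. No 2 count columns were alike, and 14540 symbols had no read.

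Counts were fitted with edgeR 4.0.16 (TMM, filterByExpr by genotype with a minimum count of 10, robust quasi-likelihood F test; limma 3.58.1, R 4.3.3) with sex as a term, adjusted by Benjamini-Hochberg over all 13815 genes tested, threshold 0.05. DESeq2 1.42.0 was an alternative. CPM are TMM-scaled, log2 CPM used a prior count of 2, SE is the log2 fold change over the root of F, and 95% intervals use the t distribution. Correlations were tested by permutation. The models were tested on simulated data. The genotype simulations held no differences between prefixes, so they do not show how the fits behave where prefixes differ.

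Members and lists were chosen with earlier results of these data known. Named with their group values were the 10 members with the smallest p for genotype, the 6 for prefix, the 2 for sex and each interaction, and members called in any fit. Same-prefix animals of both genotypes deviated together (9 pairs, correlations of 0.200 to 0.517, each above 0.1). On this ground the title prefix served as a pairing in a replicate block. Pairs of different prefixes had correlations of -0.413 to 0.251, so these ranges overlapped. Wild-type replicate 1 went more with heterozygous replicate 2 (0.251) than with heterozygous replicate 3 of its own prefix (0.200). The wild-type animals are littermates of heterozygotes, and the labels do not say whether the prefix marks a litter. P-values measure the spread between animals, and in the block fits only the spread left within prefixes.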

Additional observations from a re-analysis of the deposited data

Results flagged for a closer look

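In 3 of 82 groups of 7 animals examined (41 members in 2 genotypes), 1 animal stood far from the others of its genotype; by chance about 1 in 20 groups would. Penk was at 130.458 CPM in wild-type replicate 4, a male of prefix 048, and at 33.5 to 74.8 CPM in the other wild-type animals; the striatal marker sum of this animal, 1601 CPM, was the highest among wild-type animals. Scg2 was at 212.689 CPM in heterozygous replicate 5, a male of prefix 119, and at 153.8 to 169.2 CPM in the other heterozygotes. The wild-type animal of prefix 119 was at 174.1 CPM, the highest among wild type. Tacr1, the substance P receptor gene, was at 4.9815 CPM in heterozygous replicate 2, a male of prefix 046, and at 2.26 to 3.40 CPM in the other heterozygotes.

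The heterozygous minus wild-type difference of 3 members (7.32%) differed between set B and set A in the fit with the title prefix as a block. This held for 767 of 13815 genes (5.55%), so the share of members was near the background. The sets came from an earlier look at these data. The log2 difference between the sets was 0.367938 for Scg2, 0.317435 for Chga and -0.348566 for Scg5. With sex as a term in place of the block, none of the 3 passed (adjusted p = 0.174, 0.226 and 0.119 in edgeR's test).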

How the results depend on the processing

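No member was called for genotype with RLE scaling, without the filter, with a mean count of at least 50 (29 members tested), by DESeq2, with sex and set as terms, without a covariate, in set A alone or without any 1 animal. The block called 1 member and 56 genes, and set B alone called 11 members and 2304 genes. The number of genes called was 1 at a mean count of at least 50, 11 by DESeq2, 15 with sex and set as terms, 0 in set A alone and 12 with the block and without prefix 141. Leaving out each animal gave 0 members and 1 to 4 genes with sex as a term, and 0 to 3 members and 10 to 120 genes with the block; the block repeats and those without prefix 141 were added after seeing the data. For the difference between the sets, 2 members were called without the filter (Penk and Scg2), 1 by DESeq2 (Scg5) and 3 with the block (767 genes). Without 1 animal 0 to 3 members were called. The 3 were called without wild-type replicate 5, where 850 genes were. The paired fit changed the call of no member for the change of genotype difference with sex. For prefix, 7 members were called without prefix 141 (17.5%, against 8.62% of genes) and 13 to 18 without 1 animal.

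The sign of the genotype difference was kept in 23 members in every fit run, and the 18 others, none above 0.22 in size, changed sign somewhere. In set A alone Crh was -0.14, Sstr1 -0.029, Oprd1 -0.014, Oprk1 0.0096, Oprm1 -0.054, Crhbp -0.19, Hcrtr2 -0.11 and Mc4r 0.083. In set B alone Penk was 0.25, Cort 0.26, Pnoc 0.22, Nmb 0.099, Scg5 -0.15, Sstr2 0.24, Oprl1 0.052, Tacr1 0.058 and Tacr3 0.10. Without prefix 141 Sstr1 was -0.036, Crhbp -0.090, Hcrtr2 -0.057 and Mc4r 0.083, and with the block -0.040, -0.089, -0.043 and 0.097. Without 1 animal the log2 differences ran from -0.23 to 0.17 in Penk, -0.14 to 0.056 in Pnoc, -0.083 to 0.038 in Oprl1, -0.18 to 0.15 in Mc4r, -0.15 to 0.052 in Cort, -0.28 to 0.023 in Nmb, -0.00043 to 0.11 in Scg5, -0.17 to 0.059 in Sstr2, -0.14 to 0.039 in Oprk1, -0.026 to 0.096 in Crhr1, -0.049 to 0.087 in Sstr1, -0.031 to 0.12 in Crhbp and -0.020 to 0.19 in Hcrtr2. The cause of these changes was not tested. Depth limits the 3 members with a mean count under 20 (Tac2, Nts and Nmb).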
